A study of Mus musculus with 6 samples.

Results

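The nuclear-encoded respiratory chain subunits are the proteins of the mitochondrial oxidative phosphorylation complexes whose genes lie on the chromosomes of the nucleus. They were taken from the deposited expression table by gene symbol alone: names starting with Ndufa, Ndufb, Ndufc, Ndufs or Ndufv (complex I, without the Ndufaf assembly factors), Sdha to Sdhd (complex II), names starting with Uqcr and Cyc1 (complex III), names starting with Cox4 to Cox8 (complex IV), and names starting with Atp5 (complex V). The rule found 83 of the 13170 genes in the table, with 38 in complex I, 4 in complex II, 9 in complex III, 16 in complex IV and 16 in complex V. All 83 had a mean above the minimum of 1 FPKM that a gene needed to be tested, as did 12026 genes in all.

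The data are RNA sequencing libraries from the brains of adult male mice of strain C57, with 3 libraries from mice of high sexual motivation and 3 from mice of low sexual motivation. No genetic change, drug or other treatment is named for either group. The labels differ on the tissue, since the title names the medial amygdala, the extraction protocol gives the abbreviation PrL and the tissue field says brain. The sources used here do not say how motivation was scored, or whether a library holds 1 animal or a pool. The p-values therefore measure the spread between these 6 libraries alone, and that spread may be technical. Values are FPKM, fragments scaled to transcript length and to the number of mapped fragments, so that levels of different genes can be set side by side.

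The libraries held brain RNA by their markers, and they were not alike in tissue content. The summed level of 13 neuronal markers was 1275 to 1482 FPKM in the high libraries and 1273 to 1364 FPKM in the low libraries. Of genes known to separate brain regions, the estrogen receptor gene Esr1, expressed in the medial amygdala, stood at 0.446 to 1.16 FPKM, and Slc17a7, the vesicular glutamate transporter of cortical neurons, at 138 to 256 FPKM. Low libraries 1 and 3 stood apart, with summed levels of 12 choroid plexus markers of 1341 and 4168 FPKM, against 82.2 FPKM in low library 2 and 41.5 to 111 FPKM in the high libraries. All 10 choroid plexus markers tested had lower means in the high group. Absolute depth is unknown, and relative depth ran from 0.954 to 1.33 of that of high library 1, with high library 2 the deepest.

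The respiratory chain moves electrons from NADH and succinate to oxygen and uses the energy to pump protons out of the mitochondrial matrix, and ATP synthase lets the protons back to make ATP. Complex I takes electrons from NADH, complex II from succinate, complex III passes them from coenzyme Q to cytochrome c, complex IV hands them to oxygen, and complex V is the ATP synthase. Subunits of every complex except complex II are divided between the nuclear and the mitochondrial genome, and neurons depend heavily on this pathway for ion pumping and synaptic transmission. In mammals, the transcription factors NRF1, GABP (a member of the ETS family) and YY1 are known regulators of nuclear respiratory genes.

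Promoter windows of 300 bases (250 before to 50 after the start site, RefSeq, build GRCm38.p6) were found for 66 of the 83 genes, in 71 windows. They were searched on both strands for the core letters GCGCATGCG of the NRF1 motif, for the ETS motif CCGGAAGT and for the core letters AAGATGGCG of the YY1 motif. The NRF1 letters stood in 8 of the 71 windows (11.3%) and in 1.75% of all 32851 promoter windows. The ETS letters stood in 5 windows (7.04%, against 3.89%) and the YY1 letters in 7 windows (9.86%, against 1.40%). The letters were chosen after values and matches had been seen, so these shares cannot test enrichment. The 32851 windows were not limited to genes expressed in these libraries. The stretches with the NRF1 letters are shown because they span complexes I, III, IV and V. Each is read 5′ to 3′ on the strand of its gene, and capitals mark the match, or the union of matches on both strands where these overlap. Their positions are chr15:102671070-102671099 (minus strand) for Atp5g2, chr5:108434430-108434459 (minus) for Atp5k, chr9:44920963-44920992 (minus) for Atp5l, chr5:115349101-115349130 (minus) for Cox6a1, chr17:56717692-56717721 (plus) for Ndufa11, chr2:36049328-36049357 (minus) for Ndufa8, chr10:80406807-80406836 (minus) for Uqcr11 and chr9:108936668-108936697 (plus) for Uqcrc1.
Atp5g2: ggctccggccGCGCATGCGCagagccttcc
Atp5k: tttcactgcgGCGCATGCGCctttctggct
Atp5l: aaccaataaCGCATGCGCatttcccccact
Cox6a1: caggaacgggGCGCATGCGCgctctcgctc
Ndufa11: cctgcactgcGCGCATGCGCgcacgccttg
Ndufa8: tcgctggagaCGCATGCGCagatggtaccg
Uqcr11: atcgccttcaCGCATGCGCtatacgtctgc
Uqcrc1: actccgctctGCGCATGCGCagcgcggctc

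The stretches with the YY1 letters are shown because 5 of the 7 belong to complex I (the other two are Atp5j and Atp5j2 of complex V), and in all except Atp5j the match began 22 to 35 bases after the start site. They lie at chr16:84835045-84835074 (minus strand) for Atp5j, chr5:145191499-145191528 (minus) for Atp5j2, chr6:126849096-126849125 (minus) for Ndufa9, chr3:51408914-51408943 (minus) for Ndufc1, chr13:114388045-114388074 (minus) for Ndufs4, chr13:73328433-73328462 (minus) for Ndufs6 and chr10:80249463-80249492 (plus) for Ndufs7. The ETS stretch of Uqcrh, at chr4:116075062-116075091 (minus strand), is shown with them because Uqcrh had the smallest p of complex III, and it holds the letters on the opposite strand.
Atp5j: aagtgtaggaAAGATGGCGgagtcttagct
Atp5j2: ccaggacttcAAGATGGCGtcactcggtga
Ndufa9: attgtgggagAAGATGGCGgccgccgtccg
Ndufc1: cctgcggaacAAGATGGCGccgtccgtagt
Ndufs4: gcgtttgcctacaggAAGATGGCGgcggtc
Ndufs6: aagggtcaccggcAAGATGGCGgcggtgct
Ndufs7: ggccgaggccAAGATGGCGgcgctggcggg
Uqcrh: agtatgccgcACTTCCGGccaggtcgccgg
The median log2 difference between the groups was 0.09 for the 8 genes with the NRF1 letters and 0.05 for the 58 without them, and 0.06 for the 7 with the YY1 letters and 0.05 for the 59 without them. For the 5 genes with the ETS letters (Atp5h, Cox8a, Ndufs3, Uqcr11 and Uqcrh) it was 0.11, and 0.05 for the 61 without them. These are matches of letters, given as a description.

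The nuclear subunits were among the more abundant transcripts of the tissue, and their levels differed widely between and within complexes. The median level of the 83 genes was 48.5 FPKM, against 7.25 FPKM over all tested genes, and together they made up 1.84% to 2.18% of all FPKM in a library. By complex, the median level was 35.5 FPKM in complex I, 45.8 in complex II, 56.8 in complex III, 69.6 in complex IV and 51.1 in complex V. There were 9 genes above 100 FPKM and 10 below 10 FPKM. Their transcripts had a median length of 875 bases (360 to 4715 bases), against 3210 bases for all tested genes, and a median GC content of 51.5% against 50.7%.

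**Figure D1:**
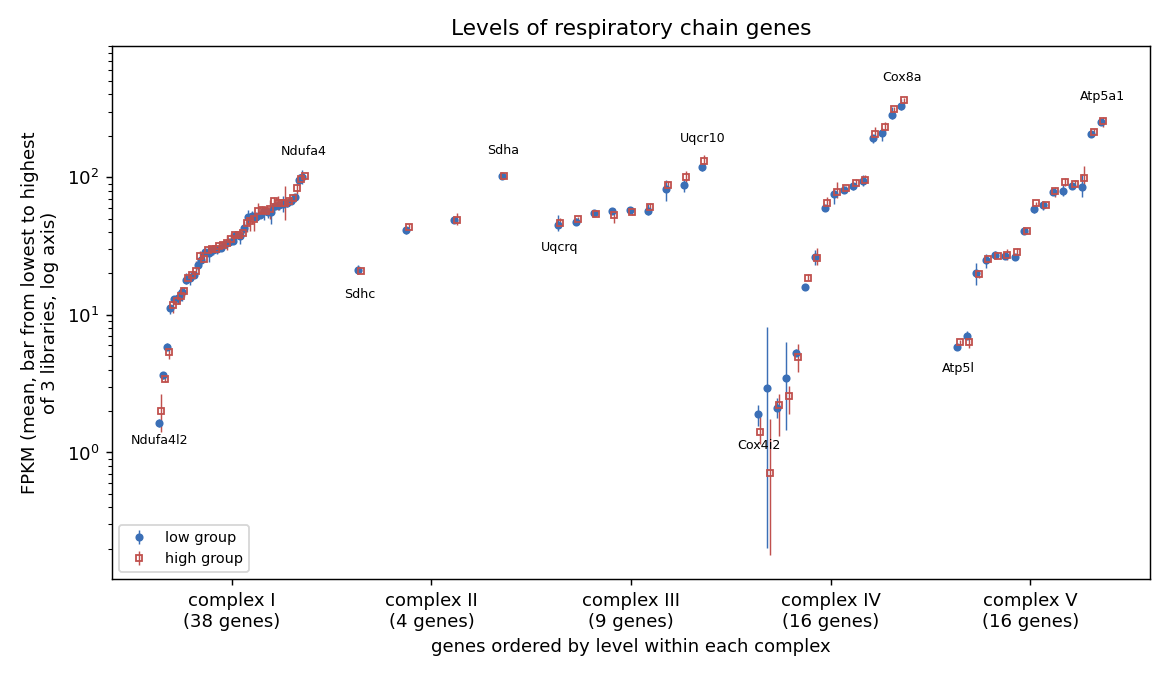
Level of each of the 83 genes by complex, on a log axis in FPKM. Points are means of the 3 high or the 3 low libraries and bars run from the lowest to the highest library; Cox8a at 347 FPKM is the highest gene, and the lowest, Cox4i2, stands at 1.66 FPKM.

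In complex I, the highest level was that of Ndufa4 (101 FPKM), which is now usually placed in complex IV, and the lowest that of its relative Ndufa4l2 (1.82 FPKM). In complex II, Sdha, the flavoprotein that oxidizes succinate, stood at 102 FPKM and the membrane anchor Sdhc at 21.0 FPKM. In complex III, the small subunit gene Uqcr10 was the highest at 125 FPKM and Uqcrq, which encodes another small subunit, the lowest at 45.8 FPKM. In complex V, Atp5a1, the alpha subunit of the catalytic head, reached 255 FPKM and Atp5l, the g subunit of the membrane part, 6.08 FPKM. The 5 genes of the F1 head of ATP synthase (Atp5a1, Atp5b, Atp5c1, Atp5d and Atp5e) had a median of 86.0 FPKM, against 27.6 FPKM for the other 11 genes of complex V.

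Complex IV has pairs of genes that encode alternative forms of 1 subunit, and in the brain libraries the widely expressed form made up most of the level in 5 of the families examined. Cox4i1 made up 98.8% to 99.5% of the level of its pair with Cox4i2, a form best known from lung. Cox6a1 made up 97.9% to 98.7% beside Cox6a2, the heart and skeletal muscle form, and Cox6b1 made up 97.3% to 99.3% beside Cox6b2, the testis form. Cox8a made up 97.8% to 99.9% beside Cox8b, another heart and muscle form. Ndufa4 made up 97.5% to 98.6% beside Ndufa4l2. In these 5 pairs the minor form stayed below 3% in every library.

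Other families were shared more evenly. Cox5b, a peripheral subunit, made up 81.4% to 84.9% of the summed level of Cox5a and Cox5b, which encode different subunits and are not alternatives for each other. Cox7a2 made up 44.2% to 51.2% of the Cox7a family and Cox7a2l, which takes part in joining complexes III and IV into supercomplexes, 47.3% to 54.5%. Cox7a1, the muscle form, made up 0.858% to 1.68%. The c subunit of ATP synthase, which forms its rotating ring, is encoded by 3 genes: Atp5g3 made up 55.5% to 59.5% of their level, Atp5g2 23.0% to 27.2% and Atp5g1 15.5% to 20.2%. Any reads that match more than 1 of these genes could be split between them in ways the deposited values do not show. How many reads do so was not tested.

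Cox8b was the exception among the low genes. It stood at 0.195, 1.75 and 0.180 FPKM in high libraries 1 to 3 and at 0.203, 0.467 and 8.16 FPKM in low libraries 1 to 3. The highest value was 45.4 times the lowest, and only low library 3 and high library 2 were above 1 FPKM. The choroid plexus marker sum was 4168 FPKM in low library 3 and 1341 FPKM in low library 1, and its part in the Cox8b values was not tested. Cox6b2 was likewise highest in low library 3, at 6.37 FPKM, against 1.47 to 3.04 FPKM in the other 5 libraries.

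No gene of the respiratory chain passed the test between high and low motivation, and neither did any other gene. At an adjusted p under 0.05 (limma, Benjamini-Hochberg over 12026 genes), 0 of the 83 subunits and 0 of all genes (0%) were called. The smallest adjusted p from limma was 0.553 among the subunits and 0.363 among all genes. At an unadjusted p under 0.05 there were 2 subunits, Cox5a and Ndufb10, both higher in the high group, which is 2.41% of the 83, against 8.39% of all genes (4.12% higher and 4.27% lower in the high group). The groups did not overlap for 4 subunits (Cox5a, Cox7c, Ndufa10 and Atp5o), all higher in the high group, which is 4.82% of the 83 and below the 14.9% of all genes (7.33% higher and 7.61% lower). In the authors' deposited table, an unadjusted p under 0.05 stands beside 1 subunit, Cox5a (0.0115).

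The differences were small and leaned in 1 direction. The mean of log2(FPKM + 1) was higher in the high group for 63 of the 83 subunits (75.9%), against 50.1% of all genes tested. It was lower for 20. Counts of higher and lower genes below were taken on this scale. The median log2 difference (high minus low, in log2(FPKM + 1)) was 0.049, against 0.00018 over all genes, with a median standard error of 0.09 per gene in both sets. By complex, 31 of 38 genes of complex I were higher with a median difference of 0.06, 2 of 4 of complex II with -0.00056, 6 of 9 of complex III with 0.07, 11 of 16 of complex IV with 0.04 and 13 of 16 of complex V with 0.02. The lean varied with the libraries used: with low library 1 left out, 46 of 83 (55.4%) were higher, against 49.9% of all genes, and the median difference was 0.0077. With low libraries 1 and 3 both left out, 50 were higher (60.2%, against 51.5%) and the median was 0.03. Without high library 2, 53 were higher (63.9%, against 48.8%) with a median of 0.03, and without low library 3, 67 were higher (80.7%, against 50.4%) with a median of 0.09.

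**Figure D2:**
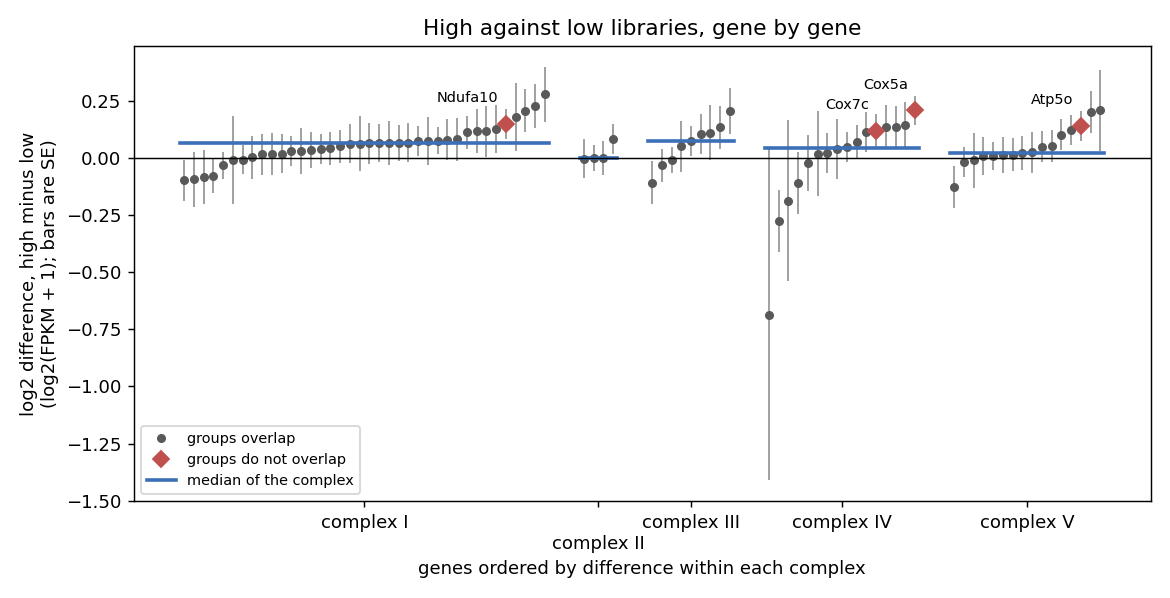
Difference between the groups (high minus low, in log2(FPKM + 1)) for each of the 83 genes, ordered within each complex, with bars of 1 standard error, blue lines at the median of each complex and red diamonds for the 4 genes whose groups do not overlap. Of the 83 points 63 lie above 0, most within 0.15 of it, and Cox8b of complex IV has the widest bar.

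In complex I, 7 of the 38 genes encode core subunits, which carry the flavin and the iron-sulfur clusters and are shared with bacteria. The other 31 were counted as accessory by their names. They include Ndufa4, now usually placed in complex IV, and its relative Ndufa4l2, both with higher means in the high group. Of the core genes, 5 were higher and 2 lower in the high group, with a median log2 difference of 0.07. Of the accessory genes, 26 were higher and 5 lower, with a median of 0.06. The largest difference among the core genes was 0.11 (Ndufv1, which binds the flavin and NADH), and the core genes lower in the high group were Ndufs1 and Ndufv2.

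The 3 complex I genes with the smallest p all encode accessory subunits. Ndufb10 (chr17:24722060-24724478), of the membrane arm, stood at 82.9, 94.6 and 75.0 FPKM in high libraries 1 to 3 and at 65.6, 75.0 and 74.0 FPKM in low libraries 1 to 3. High library 3 lay between low libraries 2 and 3, so the groups overlapped, and the log2 difference was 0.23 (SE 0.10, adjusted p = 0.588). Ndufa2 stood at 61.1, 72.0 and 69.2 FPKM in the high libraries and at 45.8, 58.5 and 63.3 FPKM in the low libraries. Low library 3 lay above high library 1, and the log2 difference of 0.28 (SE 0.12, adjusted p = 0.596) was the largest positive difference of the 83 genes. Ndufa10 (chr1:92439010-92473860) stood at 36.6, 41.0 and 36.5 FPKM against 34.4, 34.4 and 33.8 FPKM, so that every high library was above every low library. Its log2 difference was 0.15 (SE 0.07, adjusted p = 0.596).

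Complex II is the only complex whose subunits are all nuclear, and it is also an enzyme of the tricarboxylic acid cycle. Sdhb, the iron-sulfur subunit, stood at 43.3, 45.6 and 42.7 FPKM in the high libraries and at 38.7, 42.4 and 43.2 FPKM in the low libraries, a log2 difference of 0.08 (SE 0.07, adjusted p = 0.733). The groups overlapped because low library 3 lay above high library 3. Sdhd, a membrane anchor, stood at 44.7, 55.0 and 47.5 FPKM against 47.4, 51.4 and 48.4 FPKM. The low libraries lay within the range of the high libraries, and the log2 difference was -0.0037 (SE 0.08, adjusted p = 0.991). Sdha was the steadiest of the 83 genes, at 105, 99.5 and 101 FPKM against 103, 101 and 102 FPKM, with the highest library 1.06 times the lowest. Its log2 difference was -0.0014 (SE 0.06, adjusted p = 0.995).

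In complex III, the genes with the smallest p were Uqcrh, the hinge protein that holds cytochrome c1, Uqcr10, a small subunit, and Cyc1, cytochrome c1 itself. Uqcrh stood at 91.0, 112 and 100 FPKM in the high libraries and at 78.7, 96.9 and 87.3 FPKM in the low libraries. Low library 2 lay above high library 1, and the log2 difference was 0.20 (SE 0.10, adjusted p = 0.605). Uqcr10 stood at 118, 146 and 130 FPKM against 111, 127 and 120 FPKM, a log2 difference of 0.13 (SE 0.09, adjusted p = 0.697), and high library 1 lay below 2 of the low libraries. Cyc1 stood at 59.0, 65.3 and 59.5 FPKM against 53.4, 53.8 and 64.3 FPKM, a log2 difference of 0.10 (SE 0.09, adjusted p = 0.742). In Cyc1, low library 3 was above 2 of the high libraries. The Rieske iron-sulfur protein gene Uqcrfs1 and the core genes Uqcrc1 and Uqcrc2 differed by less, with log2 differences from -0.03 to 0.07.

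In complex IV, Cox5a, a subunit that faces the matrix, had the smallest p of the 83 genes. Cox5a (chr9:57521274-57532426) stood at 19.8, 18.4 and 17.8 FPKM in the high libraries and at 16.1, 15.9 and 15.9 FPKM in the low libraries. Every high library was above every low library, with means of 18.6 ± 1.03 and 16.0 ± 0.104 FPKM (SD, n = 3), and the log2 difference was 0.21 (SE 0.06, adjusted p = 0.553). Exons of Cox5a overlap those of Gm26631 on the other strand, and the sources used here do not say whether counting used strand. An exact 2-sided permutation test over 3 against 3 libraries cannot give a p below 0.1.

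The other complex IV genes with the smallest p were Cox7c and Cox4i2. Cox7c, one of the smallest subunits, stood at 62.7, 71.3 and 61.0 FPKM against 59.3, 60.5 and 59.2 FPKM, and every high library was above every low library. Its log2 difference was 0.12 (SE 0.07, adjusted p = 0.658). Cox4i2 had a lower mean in the high group, at 1.16, 1.27 and 1.81 FPKM against 2.22, 1.56 and 1.96 FPKM. The groups overlapped because high library 3 lay above low library 2, and the log2 difference was -0.28 (SE 0.13, adjusted p = 0.605). Of the 6 genes for forms tied to other tissues (Cox4i2, Cox6a2, Cox6b2, Cox7a1, Cox8b and Ndufa4l2), 2 were higher and 4 lower, with a median log2 difference of -0.15. Without these 6, 61 of the 77 other genes were higher, with a median of 0.05.

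In complex V, the genes with the smallest p were Atp5d, the delta subunit of the F1 head, Atp5o, which ties the head to the stator, and Atp5j2, the f subunit of the membrane part. Atp5d stood at 90.0, 99.0 and 86.7 FPKM in the high libraries and at 76.6, 73.5 and 90.0 FPKM in the low libraries. Low library 3 lay within the high group, and the log2 difference was 0.20 (SE 0.09, adjusted p = 0.599). Atp5o (chr16:91925214-91931687) stood at 63.0, 66.5 and 64.0 FPKM against 55.0, 58.8 and 61.9 FPKM, with every high library above every low library. Its log2 difference was 0.14 (SE 0.07, adjusted p = 0.599). Exons of Atp5o overlap those of Donson on the same strand and of D430001F17Rik and Gm15976 on the other strand. Atp5j2 stood at 27.6, 28.3 and 30.4 FPKM against 25.6, 25.7 and 27.8 FPKM, a log2 difference of 0.12 (SE 0.07, adjusted p = 0.625), and low library 3 lay above high library 1. All 5 F1 genes had higher means in the high group, with a median log2 difference of 0.02. The catalytic subunit genes Atp5a1 and Atp5b had log2 differences of 0.0068 and 0.05.

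**Figure D3:**
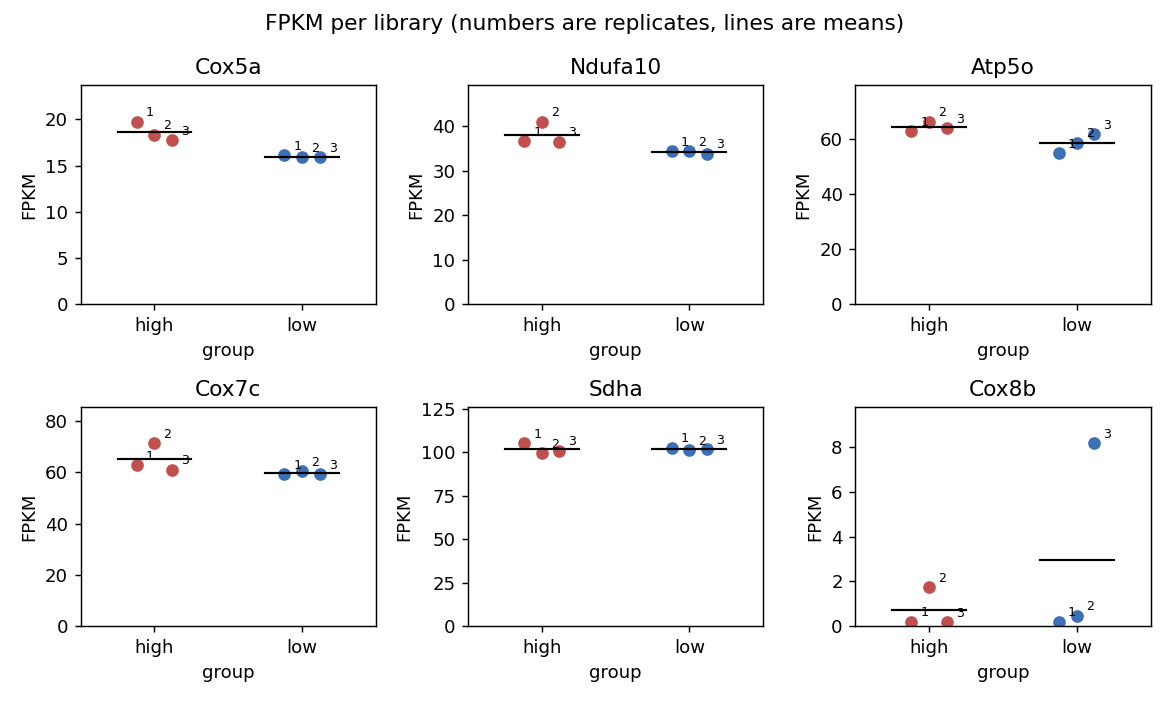
FPKM per library of the 4 genes whose groups do not overlap (Cox5a, Ndufa10, Atp5o and Cox7c), of the steadiest gene Sdha and of the most variable gene Cox8b, with numbers for the replicates and lines for the group means. The 3 high libraries of Cox5a (17.8 to 19.8 FPKM) lie above its 3 low libraries (15.9 to 16.1 FPKM), and low library 3 of Cox8b (8.16 FPKM) stands above all others.

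Exons of 30 of the 83 genes overlap an exon of another annotated gene in GENCODE, in 27 cases on the other strand. Besides Cox5a and Atp5o, these include Ndufa2 (with Tmco6) and Atp5d (with Cbarp), both with the other gene on the other strand. Across the 6 libraries, the highest library was a median of 1.23 times the lowest, close to the 1.28 times over all genes. By complex this median ran from 1.18 times in complex II to 1.305 times in complex IV. In 27 of the 83 genes the highest library was under 1.2 times the lowest. In 3 it was over 2 times (Cox8b, Cox6b2 and Cox7a1).

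The subunit genes deviated together in single libraries. Low library 1 was below the mean of the 6 libraries in 75 of the 83 genes (90.4%, against 46.7% of all genes) and was the lowest library in 39 (47.0%, against 13.5%). High library 2 was the highest library in 36 genes (43.4%, against 22.8%). The median deviation from the gene mean, on the log2(FPKM + 1) scale, was -0.12 in low library 1 and 0.09 in high library 2, and between -0.02 and 0.02 in the other 4 libraries. In every complex low library 1 had the lowest median deviation (-0.06 to -0.13) and high library 2 the highest (0.06 to 0.11). The summed level of the 83 genes was 4995, 5407 and 5039 FPKM in the high libraries, against 4574, 4926 and 5149 FPKM in the low libraries, so that low library 3 was above 2 of the high libraries.

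**Figure D4:**
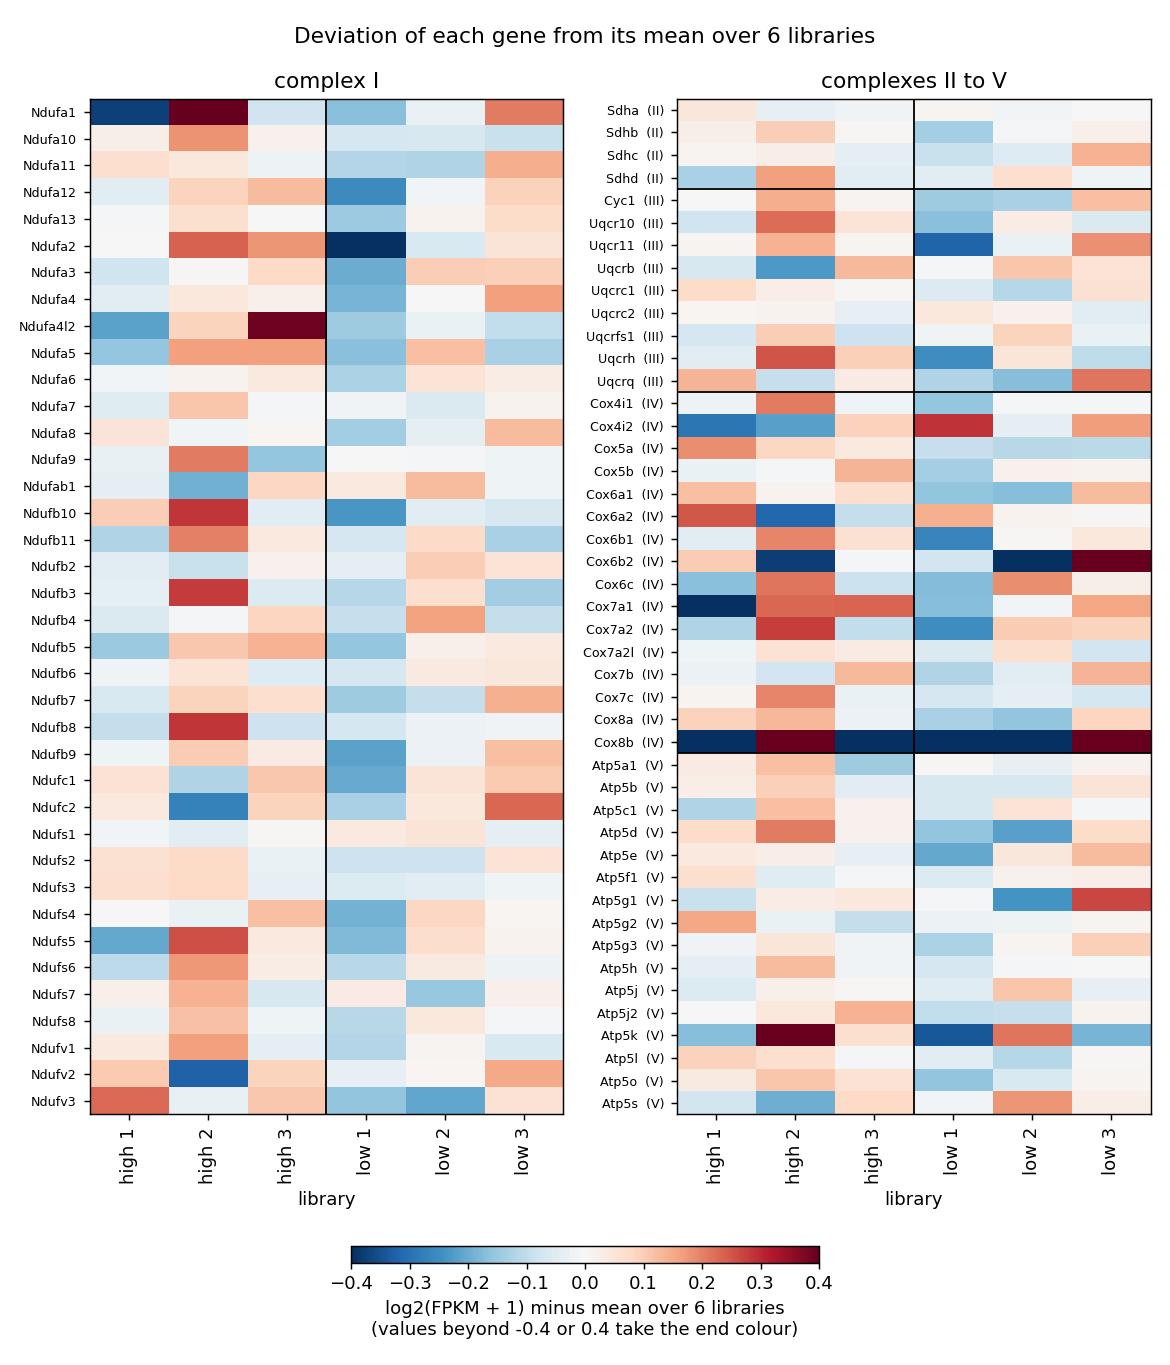
Deviation of each of the 83 genes in each library from its mean over the 6 libraries, in log2(FPKM + 1), with complex I on the left and complexes II to V on the right. Low library 1 is blue (below the mean) in 75 of 83 genes, and high library 2 holds the highest value of 36 genes.

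Transcript length and GC content moved with these deviations. Across the 83 genes, the deviation of low library 1 had a Spearman rho of 0.50 with transcript length, against 0.26 across 11924 tested genes, so that shorter transcripts lay lower in that library. The median deviation of low library 1 was -0.15 in the shorter 42 genes and -0.07 in the longer 41. The difference between the groups had a rho of 0.35 with GC content across the 83 genes and of 0.40 across all genes. These are correlations across genes of the same 6 libraries, given as a description. Once a trend on GC content and on length had been taken out of each library, 49 of the 83 genes (59.0%) were higher in the high group, against 53.0% of all genes, and the median log2 difference was 0.01.

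**Figure D5:**
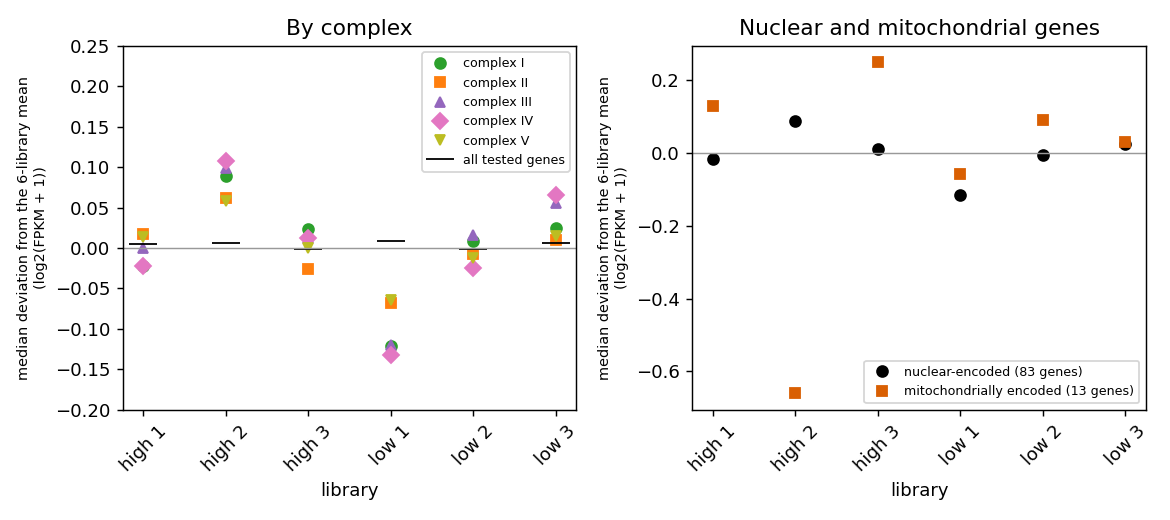
Left, median deviation of the genes of each complex from their gene means in each library, in log2(FPKM + 1). Black dashes on the left are all tested genes, and the right side gives the same median for the 83 nuclear and the 13 mitochondrially encoded genes, which in high library 2 stand at 0.09 and -0.66.

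The 13 subunits encoded by the mitochondrial genome lay the other way from the nuclear genes in high library 2. Of the 13, 3 had higher and 10 lower means of log2(FPKM + 1) in the high group. Their median log2 difference was -0.09, and 0 passed the test. High library 2, where the nuclear genes were highest, was the lowest library for 12 of the 13, with a median deviation of -0.66. The summed mitochondrially encoded level was 34599, 27375 and 41380 FPKM in the high libraries, against 34761, 37153 and 34629 FPKM in the low libraries. It was 5.06 to 8.21 times that of the nuclear genes. The mean levels of the 13 were very uneven, from 8.61 FPKM (mt-Nd3) to 10121 FPKM (mt-Co1). The level of mt-Co3 ran from 46.7 FPKM in high library 2 to 216 FPKM in low library 3. Of the 13, the 2 with the smallest p from limma were mt-Co3 and mt-Nd2. The first is a catalytic core subunit of complex IV (log2 difference -0.43, adjusted p = 0.802). The second is a membrane subunit of complex I (-0.22, adjusted p = 0.803). When each library was scaled to the same sum over nuclear genes, which takes these transcripts out of the scaling, 59 of the 83 nuclear genes (71.1%) were higher, against 47.5% of all genes.

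Other genes of the pathway were split more evenly in direction, apart from the carriers and porins. Of 42 tested assembly factors and chaperones, which build the complexes, 24 were higher and 18 lower, with a median log2 difference of 0.0088, and 0 passed the test. The smallest p among them belonged to Coa3, a complex IV assembly factor, at 58.3, 60.0 and 59.3 FPKM in the high libraries against 49.7, 50.7 and 56.1 FPKM. Its groups did not overlap, and the log2 difference was 0.18 (SE 0.07, adjusted p = 0.575). Ndufaf7, a methyltransferase for complex I, lay the other way, also without overlap, with a log2 difference of -0.13 (adjusted p = 0.599). The groups did not overlap for 3 of the 42 genes (7.14%, against 14.9% of all genes), 1 higher and 2 lower in the high group.

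Among 19 genes of coenzyme Q synthesis and electron carriers, 10 were higher and 9 lower, with a median of 0.0068. Etfb, which passes electrons from fatty acid oxidation to the chain, stood at 1.75, 1.99 and 1.78 FPKM against 2.26, 2.46 and 2.97 FPKM (log2 difference -0.32, SE 0.10, adjusted p = 0.553), and Coq9, a coenzyme Q synthesis factor, had a log2 difference of 0.14 (adjusted p = 0.596). Of 18 tricarboxylic acid cycle genes, 10 were higher and 8 lower, with a median of 0.03. The smallest p there belonged to Pdhx and Dld, both of the pyruvate dehydrogenase complex, with log2 differences of -0.16 each (adjusted p = 0.583 and 0.605).

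Of 20 tested regulators of mitochondrial gene expression, 11 were higher and 9 lower, with a median of 0.02. The methyltransferase of mitochondrial ribosomal RNA, Tfb1m, had a log2 difference of 0.18 (adjusted p = 0.605), and Myc, a transcription factor, of -0.19 (adjusted p = 0.656). The last list held the ADP/ATP and phosphate carriers and the porins of the mitochondrial membranes, together with Ucp2 and the creatine kinase gene Ckmt1. Of its 8 tested genes, 1 had a higher and 7 a lower mean of log2(FPKM + 1) in the high group, with a median difference of -0.01. The 1 was Ckmt1, which is neither a carrier nor a porin, at 86.9, 85.6 and 82.2 FPKM against 78.3, 72.0 and 75.7 FPKM (log2 difference 0.17, SE 0.06, adjusted p = 0.575), and the second smallest p was that of the ADP/ATP carrier Slc25a5 (-0.06, adjusted p = 0.832). The log2 differences of the 7 others ran from -0.06 to -0.0028, the latter in Vdac1, a porin. In these 5 lists too, 0 genes passed the test.

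Cell type markers also moved with the groups or the libraries. The 10 oligodendrocyte and myelin markers all had higher means in the high group, with summed levels of 353 to 423 FPKM against 324 to 359 FPKM, and low library 1 was the lowest library for 6 of them. The summed level of neuronal markers was highest in high library 2 (1482 FPKM). The 5 erythrocyte markers all had lower means in the high group, with summed levels of 114 to 186 FPKM against 133 to 253 FPKM, as did all 7 tested markers of ependymal cells, with summed levels of 11.8 to 13.8 FPKM against 20.6 to 40.5 FPKM. Sums ranged from 587 to 767 FPKM against 605 to 690 FPKM for 10 astrocyte markers, from 174 to 181 FPKM against 160 to 178 FPKM for 9 microglial markers and from 69.7 to 101 FPKM against 64.7 to 75.0 FPKM for 9 endothelial and mural markers. The part of these tissue differences in the values of the subunit genes was not tested. In bulk tissue, fewer cells of a type and less RNA per cell cannot be told apart.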

How the data were processed

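Poly(A)-selected RNA of 6 libraries was sequenced, 3 in each of 2 groups. The submitters' processing notes name the tools fastp, HISAT2 and StringTie and the build GRCm38, and the authors deposited gene values as FPKM. The authors' deposited table also has log2 fold changes and p-values, of which the p-value is quoted for 1 gene. The table holds 13170 genes, and 0 values are 0. In 20 places a gene symbol appears as a date, and these were not named.

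FPKM carry no counts, so log2(FPKM + 1) was compared with limma 3.58.1 (R 4.3.3), with a variance trend, 2-sided tests and Benjamini-Hochberg adjustment at 0.05 over the 12026 genes whose mean FPKM reached 1. The fit was tested on simulated data. Lists were described by counts and medians without a test. Gene models, GC content and length came from GENCODE for GRCm38 (all 83 genes matched) and promoters from RefSeq. The motif letters were chosen after values and matches had been seen. Other steps used Python 3.11.15. The members and lists were chosen with earlier results of these data known. Named genes are the 3 with the smallest p per complex, the highest and lowest level per complex, the families of related forms, and the 2 with the smallest p in each other list. Names outside this rule were chosen after their values were seen. Alternatives were other pseudocounts, filters and scalings, a replicate block, removal of GC and length trends, array weights, no variance trend, robust fitting and libraries left out.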

Additional observations from a re-analysis of the deposited data

How the results depend on the processing

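Under all 19 alternatives, 0 genes of the table were called by limma, and the smallest adjusted p of a named subunit was 0.197, with array weights. The median log2 difference of the 83 genes ran from 0.0077 to 0.09 with 1 library left out, the lowest without low library 1, and the number of higher genes from 46 to 67. With 1 library left out, the median of complex I ran from 0.0066 to 0.086 and that of complex II from -0.012 to 0.034. The median of complex III ran from 0.010 to 0.14, that of complex IV from -0.0078 to 0.11 and that of complex V from 0.012 to 0.076. With the GC and length trend removed, the median of complex V was -0.0012. Subunits with an unadjusted p under 0.05, 2 in the result given, numbered 5 with an equal sum over nuclear genes (7.97% of all genes), 5 with the replicate block (6.18%), 4 with the block and the GC and length trend removed (6.40%), 1 with no variance trend (8.10%), 7 with array weights (13.03%) and 1 without low libraries 1 and 3 (3.00%). With a library left out they numbered 1 to 8, against 4.95% to 11.01% of all genes, with 8 without low library 3, 5 each without high libraries 1 and 3, and 1 without low library 1. Subunits whose groups did not overlap, 4 in the result given, numbered 7 with an equal sum over nuclear genes (8.43% of the 83, against 14.5% of all genes), 39 without low libraries 1 and 3 (47.0%, against 50.7%) and 7 to 26 with a library left out (8.43% to 31.3%, against 22.1% to 28.5%), with 26 without low library 3. Without low library 3 the share was 31.3% of the 83, against 27.2% of all genes. Fewer libraries separate more often by construction. The log2 difference of Sdha, near 0, changed sign with the trend removed (0.0074, and 0.0074 with the block), with array weights (0.014) and without low libraries 1 and 3 (0.0088), and ran from -0.025 to 0.015 with a library left out. That of Sdhd ran from -0.087 to 0.060 with a library left out. The cause was not tested. The replicate numbers are not stated to pair the libraries. The correlations of same-numbered deviations were -0.09, -0.21 and -0.16. They were taken on deviations within groups of 3 libraries and cannot decide whether the libraries were paired. The absolute depth is unknown, so the limit it sets cannot be given.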
